A study of Rattus norvegicus with 10 samples.

Results

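The genes described are those of folate, methionine and one-carbon metabolism, taken as the rows of the deposited expression table whose gene name is one of 50 listed symbols. A row was found for 42 of the 50, among 12828 rows in all. The libraries were labelled as the arcuate nucleus (ARC) of the hypothalamus of 10 first-time pregnant Wistar dams, collected at parturition. In the 5X-FA group, 5 dams were fed folic acid (FA) through pregnancy, and in the 5X-MTHF group 5 dams were fed an equimolar amount of [6*S*]-5-methyltetrahydrofolic acid (MTHF), both at 5 times the recommended folate content in an otherwise matched AIN-93G diet. All dams were fasted in the daytime before termination, and the nucleus was cut free-hand from frozen coronal slices, so that neighbouring tissue can be present. The study asked whether the 2 forms of folate differ in what they do to hypothalamic gene expression.

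Folate carries single carbon units at several oxidation levels, and serine and glycine are the main donors of those units. The methyl form of folate, which is also the form supplied by the MTHF diet, passes its methyl group to homocysteine to make methionine, while other forms feed thymidylate and purine synthesis. Methionine is activated to S-adenosylmethionine, the methyl donor for DNA, histones, phospholipids and creatine. Betaine, made from choline, is a second route by which homocysteine is remethylated, best known from liver and kidney.

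The values given are each gene's average log2 CPM (the gene's share of the counted reads, scaled to a common total and given on a log2 scale) over all libraries of the table, as the authors computed it. The table also has 10 columns of values per library whose names match no sample label, and these were not used. No member was therefore compared between the 5X-FA and 5X-MTHF dams, and no value has an error or a number of replicates. Long transcripts collect more reads than short ones and transcript lengths were not used here, so an order of genes is an order of reads and not of transcript numbers. The depth of the libraries is unknown from this column.

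Over the 42 genes the median was 4.64 log2 CPM, against 4.94 over all rows of the table, and the values ran from 0.83 for *Folr1* to 9.15 for *Ahcyl1*. The quartiles of the whole table were 3.65 and 6.18 log2 CPM. Of the members, 10 were above the upper quartile and 14 below the lower one, or 23.8% and 33.3% where each holds 25% of all rows. Reads were unevenly spread among them. Summed over the members, the average values came to 2881 CPM, and the 5 genes with the most reads held 50.6% of that sum. These 5 were *Ahcyl1*, *Mat2a*, *Qdpr*, *Dld* and *Slc44a1*, of which the first 2 are in the methionine cycle and the others in the folate, glycine and transport branches.

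**Figure D1:**
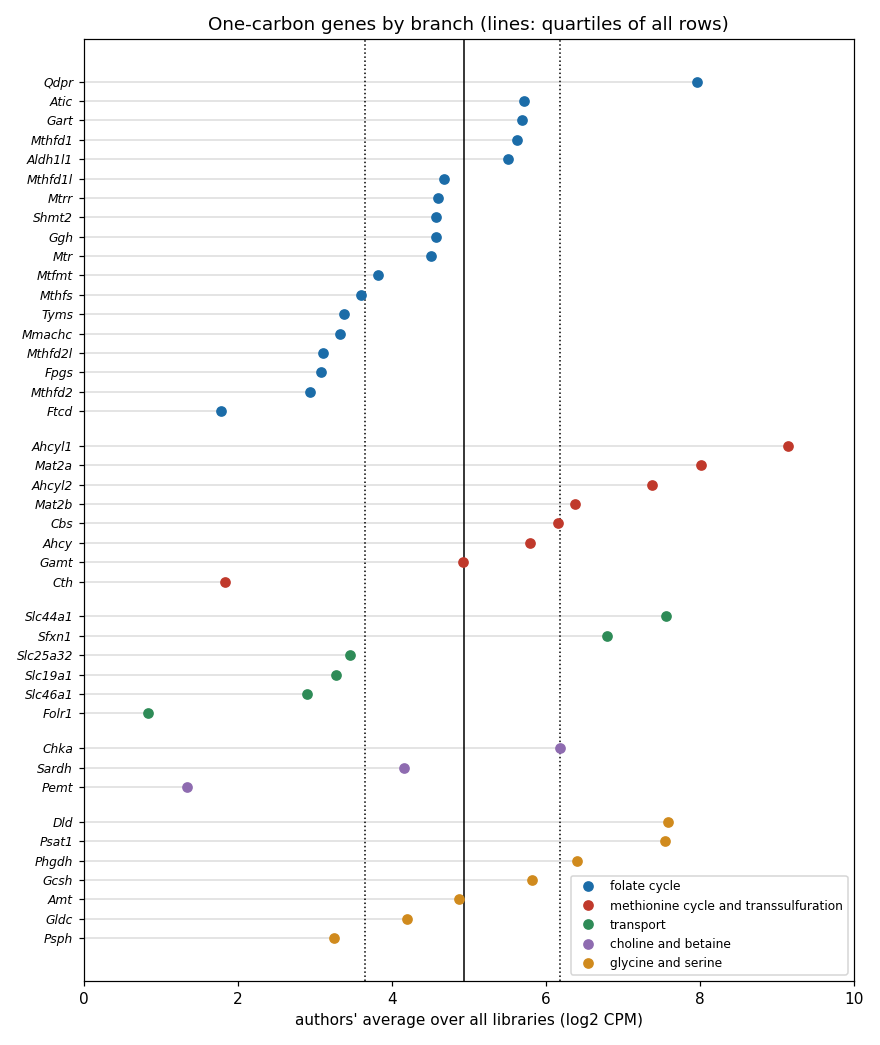
Average log2 CPM over all libraries (x axis) of each of the 42 genes with a row, 1 point a gene, colored and grouped by branch. The solid line is the median of all 12828 rows (4.94) and the dotted lines are the quartiles (3.65 and 6.18); the transporter points lie outside the quartiles, 2 above and 4 below.

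With all its listed genes counted, the methionine cycle held the most reads of the branches. Its 8 genes with a row had a median of 6.27 log2 CPM and held 43.0% of the summed CPM of the members, and 4 of them were above the upper quartile. *Mat2a*, the catalytic subunit of the methionine adenosyltransferase found outside the liver, lies on chromosome 4 of Rnor_6.0 from 100296075 to 100303080 and had 8.02 log2 CPM, or 259 CPM. *Mat2b*, its regulatory subunit, had 6.38. *Ahcy*, the hydrolase that splits S-adenosylhomocysteine into homocysteine and adenosine, had 5.79 log2 CPM, or 55.4 CPM.

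Its relatives *Ahcyl1* and *Ahcyl2* had 9.15 and 7.38 log2 CPM. *Ahcyl1*, on chromosome 2 from 210438893 to 210473761, had more reads than 98.7% of all rows. Together *Ahcyl1* and *Ahcyl2* held 25.5% of the summed CPM of the members. Without them the sum of the branch went from 1238 to 504 CPM. That is below the folate cycle (644 CPM) and the glycine and serine genes (577 CPM) with all their genes counted. Those sums keep *Qdpr* (249 CPM) and *Dld* (192 CPM), which also serve other pathways. No like removal was made there, so no order of the branches follows. *Ahcyl1* and *Ahcyl2* resemble *Ahcy* in sequence, but *Ahcyl1* is known as a protein that binds the inositol trisphosphate receptor and not as a hydrolase.

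In the branch that takes homocysteine toward cysteine, *Cbs*, which joins homocysteine to serine, had 6.16 log2 CPM, just under the upper quartile. *Cth*, which cleaves the cystathionine so formed, had 1.83, or 3.56 CPM, a value above only 5.85% of all rows. The first enzyme of the branch was thus among the better covered members and the second among the 4 with the fewest reads. *Gamt*, which uses S-adenosylmethionine to make creatine, had 4.93. *Bhmt*, *Bhmt2* and *Gnmt* have no row and were not analysed here.

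The folate cycle branch, as listed, had a median of 4.54 log2 CPM over 18 genes, of which 7 were below the lower quartile and 1 was above the upper one. That 1 gene was *Qdpr* (7.96), a reductase that mainly recycles tetrahydrobiopterin, the cofactor of monoamine synthesis. *Mtr*, methionine synthase, on chromosome 17 from 66210461 to 66295014, had 4.51 log2 CPM, and *Mtrr*, the reductase that keeps it active, had 4.60, both a little under the median of the table. *Mmachc*, which processes the vitamin B12 that *Mtr* needs, had 3.33, below the lower quartile.

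Enzymes of the cytosol and of the mitochondrion both gave reads. *Mthfd1*, the cytosolic enzyme with 3 activities that interconverts folate forms, on chromosome 6 from 99282850 to 99350340, had 5.63 log2 CPM. Its mitochondrial counterparts *Mthfd1l*, *Mthfd2l* and *Mthfd2* had 4.68, 3.11 and 2.94. *Shmt2*, the mitochondrial enzyme that moves a carbon from serine to folate, had 4.58, while the cytosolic *Shmt1* has no row. *Mtfmt*, which formylates the initiator tRNA of mitochondria, had 3.82.

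*Aldh1l1*, the cytosolic formyltetrahydrofolate dehydrogenase and a common marker of astrocytes, had 5.51 log2 CPM; its mitochondrial relative *Aldh1l2* has no row. The 6 astrocyte markers examined (*Gfap*, *Aqp4*, *Slc1a3*, *S100b*, *Gja1* and *Slc4a4*) all had a row and lay between 8.04 and 10.33. Their part in the value of *Aldh1l1* was not tested, and in bulk tissue fewer cells of a type cannot be told apart from less RNA per cell.

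*Atic* and *Gart*, which use formyl folate in purine synthesis, had 5.72 and 5.69 log2 CPM. *Tyms*, the thymidylate synthase of DNA synthesis, had 3.38, or 10.4 CPM, and *Mthfs*, which returns a storage form of folate to the cycle, had 3.59. The pair of enzymes that set the length of the glutamate tail of folate also differed in reads. *Fpgs*, which adds glutamates and so retains folate in the cell, had 3.09, and *Ggh*, which removes them, had 4.57. *Ftcd*, an enzyme of histidine breakdown that is abundant in liver, had 1.78 and stood above 5.59% of all rows.

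Transport was the branch with the widest gap. Of its 6 genes with a row, 2 were above the upper quartile, 4 were below the lower one and 0 lay between. Those above were *Slc44a1* (7.56), a choline transporter, and *Sfxn1* (6.79), which carries serine into the mitochondrion. Those below were the carriers of folate itself. *Slc25a32*, the mitochondrial folate carrier, had 3.45 log2 CPM, *Slc19a1*, the reduced folate carrier, had 3.27, and *Slc46a1*, the proton-coupled folate transporter, had 2.90. *Folr1*, the folate receptor alpha, on chromosome 1 from 166934460 to 166943592, had 0.83, or 1.78 CPM, the fewest reads of the 42. *Folr1* is best known in the brain from the choroid plexus. Of 6 choroid plexus markers, 4 had a row, between 1.69 and 3.06, and *Kl* and *Otx2* had none; their part in the *Folr1* value was not tested. *Folr2* has no row.

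**Figure D2:**
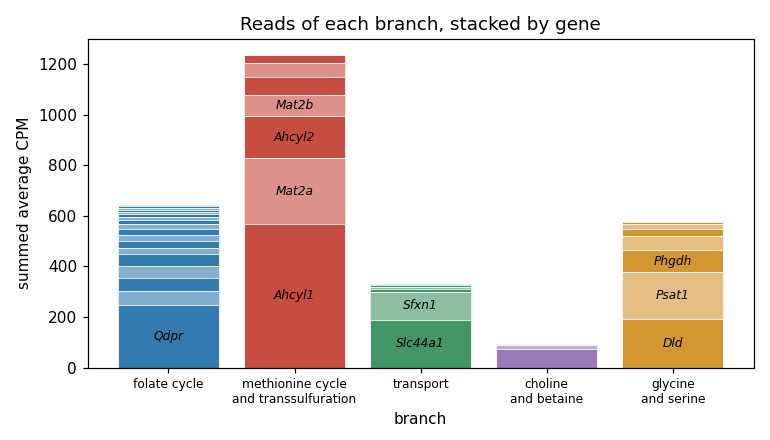
Summed average CPM of the members of each branch (y axis, from 0), stacked by gene with the larger contributors named. The methionine cycle bar is the tallest (1238 CPM), of which *Ahcyl1* is 568 CPM, and the choline and betaine bar is the shortest (92.7 CPM).

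The choline and betaine branch held 3.22% of the summed CPM over 3 genes. *Chka*, the kinase that commits choline to phosphatidylcholine, had 6.18 log2 CPM and was just under the upper quartile. *Sardh*, the mitochondrial sarcosine dehydrogenase, had 4.15. *Pemt*, which makes phosphatidylcholine by methylating phosphatidylethanolamine and is best known from liver, had 1.34, or 2.52 CPM. *Chdh*, which starts the oxidation of choline to betaine, and *Dmgdh*, which breaks down the dimethylglycine left when betaine gives up a methyl group, have no row.

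All 7 glycine and serine genes had a row, with a median of 5.82 log2 CPM and 20.0% of the summed CPM. In the 3 steps that make serine from a glycolytic intermediate, *Phgdh*, the first enzyme, had 6.41 and *Psat1*, the second, had 7.55, both above the upper quartile. *Psph*, the last enzyme of that route, had 3.24, below the lower quartile. The 4 proteins of the glycine cleavage system, which passes a carbon from glycine to folate in the mitochondrion, spread over a wide range. *Dld* had 7.58, *Gcsh* 5.82, *Amt* 4.87 and *Gldc*, the glycine decarboxylase, 4.20. *Dld* also serves the pyruvate and 2-oxoglutarate dehydrogenase complexes, so its reads do not belong to glycine cleavage alone.

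A list of 40 further genes of these pathways was read in the same way. A row was found for 35, with a median of 5.35 log2 CPM and a range from 3.20 to 7.58; 7 were above the upper quartile and 4 below the lower one. The 6 purine synthesis genes with a row were the narrowest group, between 5.11 and 5.99, a range that takes in *Atic* and *Gart*. The 8 genes of vitamin B12 handling spread from 3.32 to 7.57, and the 8 further choline genes from 4.70 to 6.30. Methionine salvage and polyamine genes (7 with a row) lay between 3.20 and 7.58, and the 5 further glycine, serine and glutathione genes between 3.86 and 7.57.

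Markers of the labelled tissue were read beside those of other regions and cell types. These are reads of different genes, so they do not measure how much of each tissue was present. Of 9 arcuate nucleus markers 7 had a row, between 0.08 and 6.02 log2 CPM with a median of 2.45, and *Npy* and *Nr5a2* had none. Of these 7, 0 were above the upper quartile of the table and 4 below the lower one, namely *Kiss1* (0.08), *Ghrh* (1.02), *Agrp* (1.42) and *Tbx3* (2.45), while *Tac3*, *Pomc* and *Cartpt* had 4.34, 4.67 and 6.02. Markers of the striatum (5 of 5) lay between 4.26 and 7.07 with a median of 5.37, 2 of them above the upper quartile and 0 below the lower one. Markers of cortex and hippocampus (3 of 5) lay between 2.40 and 7.17, and of thalamus (4 of 4) between 2.34 and 5.28. Oligodendrocyte markers (6 of 6) lay between 7.26 and 12.59, microglia (6 of 6) between 3.83 and 6.82, endothelium (4 of 5) between 4.30 and 6.28, meninges and fibroblasts (5 of 6) between 2.19 and 7.77, and tanycytes and ependyma (2 of 5) between 0.08 and 3.10. Their part in the values of the members was not tested.

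The promoters of the members were then read. The features looked at (CG count, CG observed over expected, GC content and 7 short motifs) and the genes shown were chosen after the data were seen, and a longer window had been looked at first. RefSeq promoter sequences (build GRCr8) matched 43 of the 50 symbols, 38 of them with a row in the table. In the 250 bases before the annotated start, these 38 held a median of 15 CG dinucleotides, the sites of DNA methylation, against 17 over the 9434 genes of the table with an entry. The median GC content was 61.0% against 60.8%. Members with few CG sites tended to have fewer reads. Spearman's rho between CG count and average log2 CPM was 0.46 over the 38 members and 0.21 over the 9434 genes. Both are descriptions across genes of the same libraries, which are not independent. Whether the members differ from genes at large in this was not tested.

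**Figure D3:**
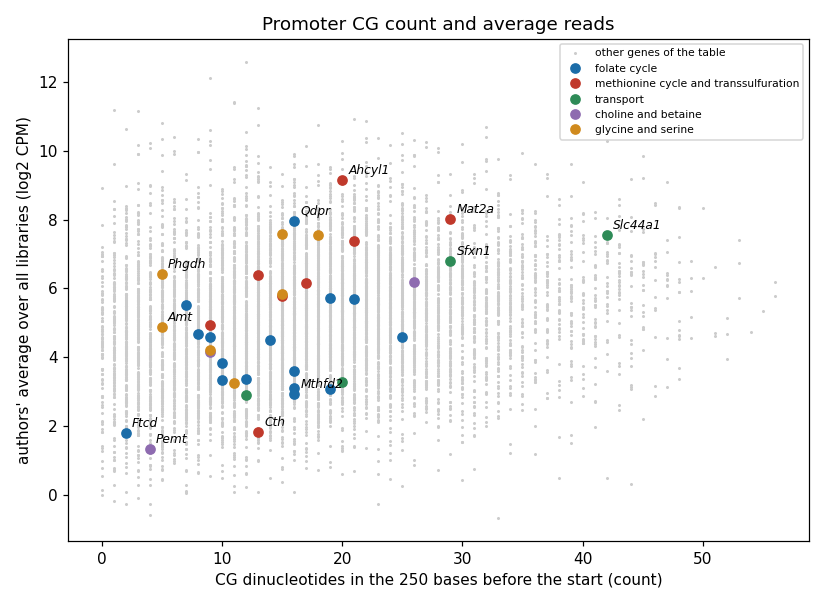
CG dinucleotides in the 250 bases before the start (x axis) against average log2 CPM (y axis); colored points are the 38 members by branch and grey points the other genes of the table. *Ftcd*, with 2 CG sites, has 1.78 log2 CPM and *Mat2a*, with 29, has 8.02, while *Phgdh* is high (6.41) with 5.

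The highest CG count among the members was 42, in *Slc44a1*, which is not printed. Shown are a promoter with many CG sites and a high level, the one with the fewest and a low level, and 1 with few sites and a high level, with each CG in capitals, 5′ to 3′ on the strand of the gene and ending at the base before the start. *Mat2a* (chr4:106053613-106053862, minus strand) has 29, *Phgdh* (chr2:188624790-188625039, minus strand) has 5 and *Ftcd* (chr20:12068220-12068469, minus strand) has 2.
Mat2a: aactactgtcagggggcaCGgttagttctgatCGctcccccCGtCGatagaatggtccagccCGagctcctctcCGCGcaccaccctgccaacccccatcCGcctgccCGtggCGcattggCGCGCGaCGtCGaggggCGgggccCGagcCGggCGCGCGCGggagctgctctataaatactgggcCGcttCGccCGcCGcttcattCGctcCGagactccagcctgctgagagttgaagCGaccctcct
Phgdh: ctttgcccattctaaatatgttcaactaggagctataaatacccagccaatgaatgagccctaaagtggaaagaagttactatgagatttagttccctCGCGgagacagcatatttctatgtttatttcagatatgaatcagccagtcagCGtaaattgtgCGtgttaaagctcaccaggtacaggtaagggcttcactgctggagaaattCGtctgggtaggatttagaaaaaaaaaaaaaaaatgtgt
Ftcd: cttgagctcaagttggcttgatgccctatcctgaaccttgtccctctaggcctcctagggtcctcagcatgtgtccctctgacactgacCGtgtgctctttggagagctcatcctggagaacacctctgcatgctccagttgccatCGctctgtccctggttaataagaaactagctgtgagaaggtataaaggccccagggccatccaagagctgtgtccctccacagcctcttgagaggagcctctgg

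Short motifs were looked for on both strands in the same 250 bases, each counted on its own even where it overlaps another. The CCAAT box, spelled CCAAT, was found in 20 of the 38 members (52.6%) and in 35.3% of the 9434 genes. GGGCGG, the GC box, was found in 26 members (68.4%) and 59.9% of genes, and TATAAA, the TATA box, in 5 members (13.2%; *Amt*, *Dld*, *Ftcd*, *Mat2a* and *Phgdh*) and 6.06% of genes. TGATGNAA, a spelling of the element bound by ATF4 and C/EBP factors, was found in 0 members and 1.72% of genes, and the cyclic AMP element TGACGTCA in 1 member, *Slc46a1*, and 2.91% of genes. CACGTG, the E-box, was found in *Atic* and *Cth* (5.26% of members against 8.28% of genes), and GCATGCGC, the core of the NRF1 motif, in *Mtfmt* and *Slc19a1* (5.26% against 4.63%). These are matches of letters and not measured binding sites.

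The matches in *Atic* (chr9:80614235-80614292, plus strand), *Cth* (chr2:249661213-249661270, minus strand), *Mtfmt* (chr8:74848922-74848963, plus strand) and *Slc19a1* (chr20:11601110-11601169, minus strand) are shown because these are the members with an E-box or NRF1 core, which is in capitals. In *Slc19a1* the core lies on the strand opposite to the one printed, so the capitals give its reverse complement.
Atic: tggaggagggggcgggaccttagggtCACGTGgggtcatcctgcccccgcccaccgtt
Cth: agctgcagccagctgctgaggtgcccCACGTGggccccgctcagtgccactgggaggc
Mtfmt: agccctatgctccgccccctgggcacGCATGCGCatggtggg
Slc19a1: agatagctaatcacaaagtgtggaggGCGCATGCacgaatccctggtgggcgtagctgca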

How the data were processed

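Poly-A RNA of the ARC of 10 dams was sequenced as read pairs. Per the submitters' processing notes and the study's methods, reads were trimmed with Trim Galore 0.5.0, mapped to Rnor_6.0 by STAR 2.6.0c, and assigned to Ensembl gene models by HTSeq 0.6.1p2. The deposited table holds 12828 genes after the authors' filter on low values; the study's methods name DESeq2 for the authors' comparison of the diets, but the column names (logCPM, F) are not those of its output, and which tool wrote the table is not given in the sources used here. Its average log2 CPM over all libraries was used as deposited; the powers of 2 of that column sum to 1002152, as CPM on a log2 scale would. The table's own comparison of the diets (log fold change, F statistic, *p*-value and FDR) was not used. The 10 columns of values per library carry names that fit none of the labels, so they were left aside and the planned tests of the diets were not run.

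A percentile is the share of rows with a lower average. Summed CPM adds the powers of 2 of the averages. Members and lists were chosen with earlier results of these data known, branches are hand-written, and all members with a row are named. Symbols that occur more than once (22 repeats) include no member and were left out of the promoter comparison. Promoters are the first listed in RefSeq for a symbol (GRCr8). Percentiles, CG counts and motif search were tested on simulated data. Coordinates of genes are those of the table, on Rnor_6.0. Scripts ran in Python 3.11.15 with scipy 1.17.1, matplotlib 3.10.9, pandas 2.3.3 and numpy 2.4.6.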

Additional observations from a re-analysis of the deposited data

How the results depend on the processing

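The median level of the members was 4.64 log2 CPM, and 4.68 over the 41 members with an average of at least 1. Their median percentile was 43.7 among all rows, 42.1 among the 12383 protein-coding rows and 44.5 over those 41 members, and no member's percentile moved by more than 1.86 among protein-coding rows. Spearman's rho between CG count and level over the members was 0.458, 0.465 with CG observed over expected and 0.463 with the last listed promoter. The longer window looked at first is not among these alternatives, so how rho depends on the window is not shown. The summed CPM of the methionine cycle was 1238, and 504 without *Ahcyl1* and *Ahcyl2*. The second value is below the full sums of the folate cycle and of the glycine and serine genes. From those sums no gene was removed, *Qdpr* and *Dld* included, so no order of the branches follows. These alternatives for the CG count and for the sum were chosen after seeing the data. No paired analysis was possible because the columns of values per dam carry no sample label. Pairs are also not part of the design as described: the diets were fed to different dams, allocated at random. The replicate numbers that the groups share are not described as pairs. Because the columns carry no label, the planned tests of the diets were not run. Nor were their alternatives run (pseudocount, filter, centring, genes adjusted over, dams left out). Levels per kilobase were not computed: no transcript lengths were at hand, and the columns of values per library were not used. The plan was to compare levels between genes only per length, so the orders of genes by reads given here depart from it. Since the columns of values per library were left aside, nothing here says how far the members vary between dams.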
